A study of Brassica napus with 12 samples.

Results

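Genes that the authors added to the annotation made up 248 members of this set, the well expressed ones among rapeseed genes known only by a number. Rapeseed (Brassica napus) is an oil crop with an A and a C subgenome. A member has an ID of the form Brassica_napus_newGene_3829, here shortened to newGene_3829, is listed in all 12 libraries and has a mean of at least 20 CPM (a count scaled to the total of all counts listed for its library, parts per 1000000) over them. The 12 libraries list 50338 genes, of which 3136 are added genes. Of the 2093 added genes found in all 12 files, 248 (11.8%) reached 20 CPM, against 11248 of 41615 annotated genes (27.0%). The level chose the members, so the levels that follow are a description. The rule did not use any contrast between lines, but it does favour a gene that is high in 1 line: 55 members would fall below 20 CPM in the mean without some 1 line, and 119 had a mean of at least 20 CPM in each of the 4 lines.

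Added genes of this kind come from transcribed stretches that a reference annotation does not cover. Such a stretch can be a protein-coding gene that the annotation missed, a long non-coding RNA, a transposable element, a fragment of a neighbouring transcript, or a gene of one cultivar that the reference lacks or holds in another form. The files give no sequence, position, strand or function for them, so no role of a member is stated and no sequence is printed. Reads were not kept apart by strand in any way the labels state, so a member that overlaps an annotated gene on the other strand cannot be told apart from it, and neither can near-identical copies.

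The groups were 4 inbred lines, A28, R8Q10, SW and YH25005, with 3 libraries each, taken 24 days after pollination from field-grown plants whose bagged flowers had been self-pollinated. The labels name no treatment. The study set lines with high against lines with low linolenic acid in the seed, but no label assigns a line to either class. The tissue is labelled as immature seeds while the protocol speaks of embryos, and this could not be checked on marker genes because IDs are not paired with gene names. The labels do not say that replicates came from separate plants, so p-values measure only how much these libraries spread, and that spread may be technical. In bulk seed RNA, fewer cells that express a gene and less of its RNA per cell cannot be told apart.

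Library totals ran from 30150457 to 40762254 counts, and members took 1.16% to 2.16% of them. Members held the smallest part in YH25005, at 1.16%, 1.22% and 1.22% of the counts, and the largest in A28, at 1.70%, 1.88% and 2.16%. R8Q10 lay at 1.46% to 1.76% and SW at 1.51% to 1.79%. YH25005 libraries also needed the lowest scaling factors (TMM, 0.779, 0.914 and 0.766, against 1.00 to 1.14 elsewhere), so an unscaled CPM in YH25005 understates its level relative to the other lines. The shares of counts above and the CPM printed here are unscaled, so the low share of YH25005 may not hold on scaled totals. Fold changes and tests are scaled. Replicates of A28 were the least alike: the median coefficient of variation of a member was 39.1% within A28, against 19.3% within R8Q10, 22.6% within SW and 17.9% within YH25005. For annotated genes of at least 20 CPM the same medians were 29.4%, 19.3%, 19.2% and 15.3%.

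Most members were of modest level and a few were abundant. The median of the mean CPM was 34.1, 178 of 248 members lay below 50 CPM and 33 at or above 100 CPM. The last members inside the threshold were newGene_2616 and newGene_15922, at means of 20.07 and 20.07 CPM, and the first added genes outside were newGene_14883 and newGene_8832, at 19.96 and 19.94 CPM. Level per length, from the deposited FPKM (fragments scaled for gene length and depth), was highest for newGene_3829, with a mean FPKM of 978, followed by newGene_12692, newGene_1760, newGene_303 and newGene_5039, at 343, 333, 309 and 288 FPKM.

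newGene_3829 was the most abundant member and was lower in YH25005 than in each of the other lines. Its CPM was 1569.7, 788 and 2062 in A28, 1241, 1141 and 2095 in R8Q10 and 2144, 1231 and 1120.1 in SW. In YH25005 it was 246, 334 and 367. Every YH25005 library lay below every other library. The log2 fold changes over YH25005 were 1.82 (SE 0.48, adjusted p = 0.0165) for A28, 1.84 (SE 0.48, adjusted p = 0.0181) for R8Q10 and 1.90 (SE 0.48, adjusted p = 0.0133) for SW (edgeR quasi-likelihood test with Benjamini-Hochberg adjustment over 43708 genes). Leaving out 1 library ended some of these calls while the differences stayed at 1.47 or above. The call against A28 did not pass without YH25005 replicate 1 or 2, that against R8Q10 without R8Q10 replicate 3 or YH25005 replicate 1 or 2, and that against SW without SW replicate 1 or YH25005 replicate 1 (edgeR adjusted p 0.0502 to 0.0751). The next number, newGene_3828, had 37.5, 6.43 and 57.2 CPM in A28, 41.1, 38.5 and 51.5 in R8Q10 and 107, 49.5 and 36.7 in SW, and 0 counts in the 3 YH25005 libraries. A library with a count of 0 could still hold up to 3 counts, or 0.0736 to 0.0995 CPM, a limit for counting error only.

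newGene_2298 was the second most abundant member. Its CPM was 474, 154 and 896 in A28 and 935, 612 and 1789 in R8Q10. It was 282, 123 and 178 in SW and 88.8, 281 and 180.4 in YH25005. The 3 R8Q10 libraries lay above all of SW and YH25005, while A28 overlapped all other lines. On the log2 scale R8Q10 exceeded SW by 2.47 (SE 0.68, adjusted p = 0.0217) and YH25005 by 2.24 (SE 0.68, adjusted p = 0.0345) (edgeR), and its differences from A28 did not pass. Neither call held throughout. The first did not pass without R8Q10 replicate 3 or SW replicate 2 or 3 (differences of 1.90 to 2.40, edgeR adjusted p up to 0.0881). The second did not pass without R8Q10 replicate 1 or 3 or any 1 YH25005 replicate (1.71 to 2.57, adjusted p up to 0.126).

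Of the next members by level, newGene_5511 had 473, 274 and 319 CPM in A28, 592, 267 and 414 in R8Q10, 302, 461 and 841 in SW and 129, 210.3 and 148 in YH25005. All YH25005 libraries lay below all others, and SW minus YH25005 was 1.42 (SE 0.44, adjusted p = 0.034) on the log2 scale while A28 minus YH25005 was 0.74 (SE 0.43, adjusted p = 0.228) (edgeR). The SW call did not pass without SW replicate 2 or 3 or any 1 YH25005 replicate (differences of 0.97 to 1.55, edgeR adjusted p up to 0.131). newGene_14998 had 540.3, 555 and 386 CPM in A28, 171, 292 and 287 in R8Q10, 401, 207 and 558 in SW and 67.4, 149 and 72.1 in YH25005. On the log2 scale, A28 minus YH25005 was 1.98 (SE 0.41, adjusted p = 0.00484) and SW minus YH25005 was 1.72 (SE 0.40, adjusted p = 0.00904), while R8Q10 minus YH25005, at 1.00, did not pass (adjusted p = 0.09) (edgeR).

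newGene_5417 stood among the abundant members through a few libraries. It reached 1.30, 1775 and 982 CPM in A28, 5.75, 226 and 61.2 in R8Q10, 175, 99.3 and 139 in SW and 491, 13.8 and 408 in YH25005. The 3 A28 libraries alone spanned nearly the whole range of the gene, all lines overlapped, and no contrast between lines passed (edgeR adjusted p 0.233 to 0.835). newGene_5277 was similarly uneven, at 0.810, 269 and 174 CPM in A28, 0, 1.36 and 0 in R8Q10, 0, 0 and 1.02 in SW and 6.10, 1.42 and 68.9 in YH25005. In both genes A28 replicate 1 was far below A28 replicates 2 and 3. The differences of newGene_5277 between A28 and R8Q10 and between A28 and SW passed (edgeR adjusted p 0.0346 and 0.0418), although A28 replicate 1 lay within the range of both lines. The first did not pass without A28 replicate 3 or R8Q10 replicate 1 or 3, and the second without any 1 of 6 libraries (edgeR adjusted p up to 0.112 and 0.136). This gene was picked after its values were seen, and it passed the 20 CPM mean only through A28.

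**Figure D1:**
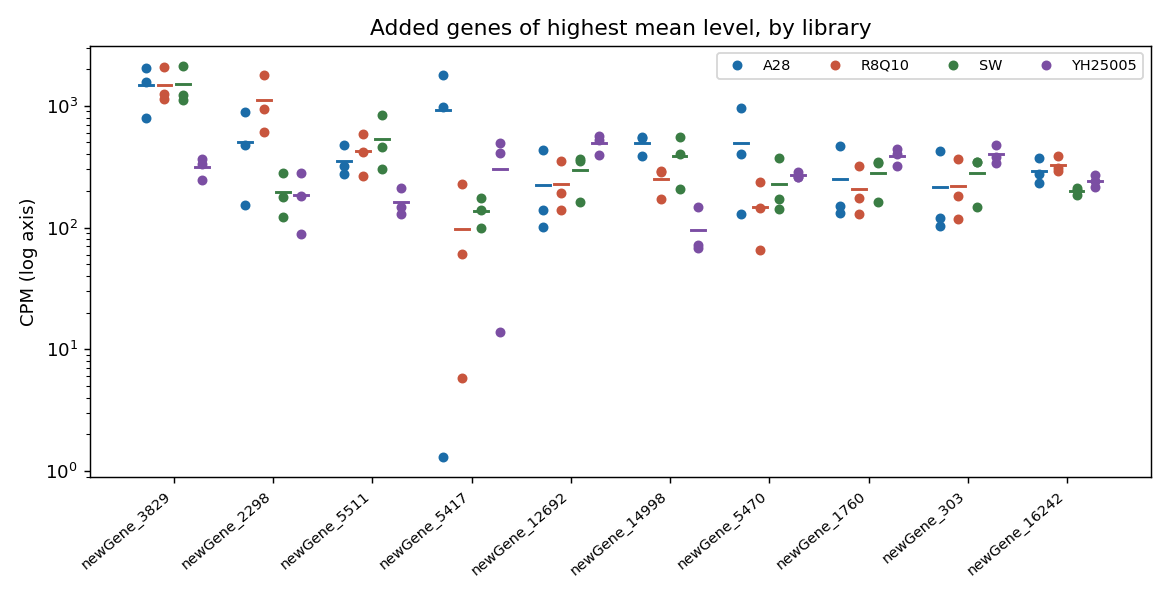
CPM of the 10 members of highest mean level (log axis), 1 point per library and a short bar at each line's mean. newGene_3829 lies between 788 and 2144 CPM in 9 libraries and between 246 and 367 CPM in YH25005, while newGene_5417 runs from 1.30 to 1775 CPM within A28.

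A group of abundant members varied together from library to library. newGene_303 and newGene_9038 kept a CPM ratio between 1.44 and 1.74 in all 12 libraries although each of them varied at least 4.56-fold. newGene_303 itself was at 119.8, 426 and 102 CPM in A28, 181, 365 and 117 in R8Q10, 345, 344 and 147 in SW and 481, 341 and 381 in YH25005. A28 replicate 2, R8Q10 replicate 2 and SW replicates 1 and 2 were high within their lines and all YH25005 libraries were high. newGene_1760 over newGene_303 stayed between 0.88 and 1.28, and newGene_12692 over newGene_303 between 0.959 and 1.38. These 4 genes had similar implied lengths of 836 to 930 bases. Among all member pairs, 11 had a ratio that varied less than 1.6-fold while both genes varied more than 3-fold. Another was newGene_4309 over newGene_15676, at 1.09 to 1.44, with implied lengths of 2125 and 2066 bases. These pairs were picked from these values and all points share the same libraries. No count of such pairs was made among annotated genes, so they are a description only.

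At the other end, the 5 steadiest members had coefficients of variation of 10.5% to 14.0% over the 12 libraries, against a median of 48.6% over the members and 38.0% over annotated genes of at least 20 CPM. newGene_13090 was the steadiest, at 23.8, 22.0 and 20.6 CPM in A28, 18.7, 20.6 and 17.5 in R8Q10, 21.5, 18.0 and 16.3 in SW and 21.3, 20.9 and 20.8 in YH25005. newGene_15866, newGene_13849, newGene_2616 and newGene_3434 followed. newGene_16242, among the 5 members of greatest implied length and the 10 of highest level, varied more, at 372, 277 and 232 CPM in A28, 289, 307 and 384 in R8Q10, 202, 210.0 and 184 in SW and 217, 271 and 240.3 in YH25005. The SW libraries lay below all others, yet none of its 6 contrasts passed (edgeR, lowest adjusted p 0.0855).

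Across the 4 lines 131 of 248 members differed, or 52.8% (edgeR quasi-likelihood F test, adjusted p at the 0.05 threshold). The share called was 46.2% over all genes tested and 47.7% over annotated genes of at least 20 CPM, so this count lies near the background. The pairs are given alike, since the labels do not tell which lines share the oil trait, and pairs with a common line share its libraries. Differences in size were also set beside the other genes. The median absolute log2 fold change of members was between 0.53 (SW minus YH25005) and 0.77 (A28 minus YH25005) over the 6 pairs. In annotated genes of at least 20 CPM it was between 0.37 and 0.52, and over all genes tested between 0.42 and 0.59. Members with 0 counts in a line enter these medians by fitted values that depend on the prior count, and they lie above the medians at their lower bounds too.

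Between A28 and YH25005, 83 members (33.5%, background 27.2%) were called, the highest count of the 6 pairs in this fit, with 55 higher and 28 lower in A28. The higher calls made up 22.2% of members against 14.5% of all genes tested, and the lower calls 11.3% against 12.7%. The 20 CPM rule leans the same way. Without A28, 27 members would fall below 20 CPM in the mean, against 10 without YH25005, and the rule used unscaled CPM. How much of the excess comes from the rule was not tested. A28 and R8Q10 gave 57 calls (23%, background 21.7%), 35 higher and 22 lower in A28, that is 14.1% and 8.87% of members against backgrounds of 12% and 9.63%. A28 and SW gave the lowest count, 43 (17.3%, background 15.4%), with 20 higher and 23 lower in A28 (8.06% and 9.27%, backgrounds 7.5% and 7.9%). R8Q10 and SW gave 63 (25.4%, background 23.6%), with 27 higher and 36 lower in R8Q10 (10.9% and 14.5%, backgrounds 11.2% and 12.4%). R8Q10 and YH25005 gave 62 (25%, background 23.4%), with 26 higher and 36 lower in R8Q10 (10.5% and 14.5%, backgrounds 10.7% and 12.7%). SW and YH25005 gave 65 (26.2%, background 26.7%), with 39 higher and 26 lower in SW (15.7% and 10.5%, backgrounds 13.6% and 13.1%). Single libraries moved some of these counts by over 1.5 times. A28 and SW gave 70 without A28 replicate 2, with more higher than lower calls (39 and 31), and 26 without SW replicate 2. A28 and R8Q10 gave 37 without R8Q10 replicate 1. R8Q10 and SW gave 41 without R8Q10 replicate 3. R8Q10 and YH25005 gave 33 without R8Q10 replicate 1, 37 without R8Q10 replicate 3, and 32 without YH25005 replicate 1 or without YH25005 replicate 3. When each fit held just the pair of lines compared, R8Q10 and YH25005 gave the highest count (91, against 59 for A28 and YH25005), while A28 and R8Q10 gave 33 and A28 and SW 23. DESeq2 gave 65 for A28 and SW, and there the larger share turned, to 34 members higher in A28 against 31 lower.

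**Figure D2:**
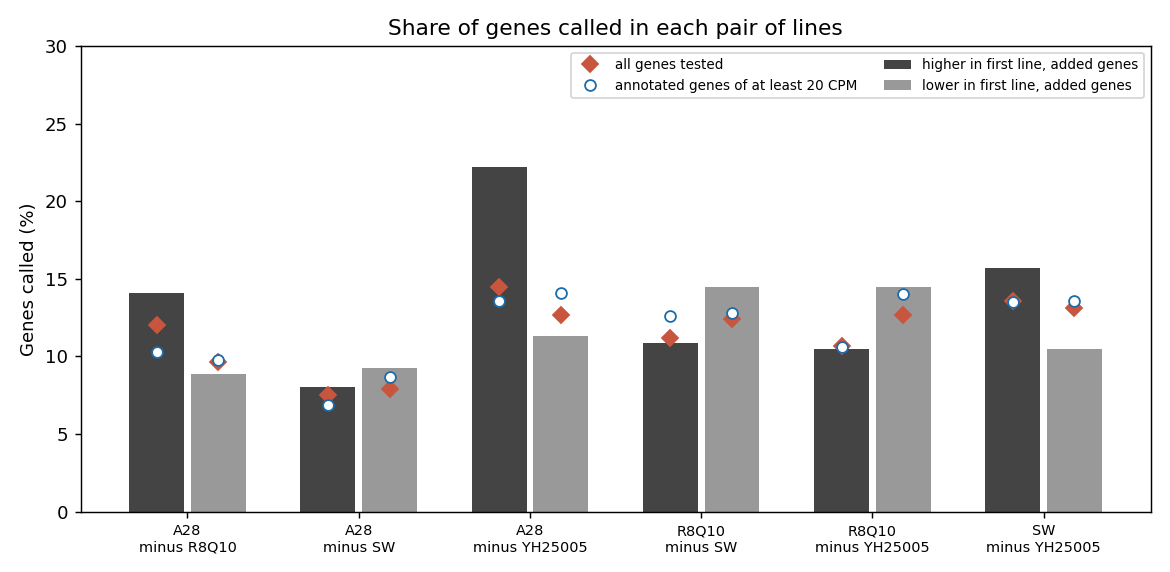
Percent of genes called (edgeR quasi-likelihood test, adjusted p at 0.05) in each pair of lines, as bars for the 248 members higher or lower in the first line. Diamonds give all 43708 genes tested and open circles the 11248 annotated genes of at least 20 CPM. The tallest bar, 22.2% higher in A28 than in YH25005, stands beside a background of 14.5%. The 20 CPM rule kept 27 members only through A28 and 10 only through YH25005.

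A line was said to stand apart when its 3 contrasts with the other lines all passed with the same sign. This held for 55 members (22.2%, background 20.8%). R8Q10 was lower in 11 members (4.44%, background 4.48%) and higher in 3 (1.21%, background 1.63%). A28 was lower in 8 (3.23%, background 2.67%) and higher in 3 (1.21%, background 1.2%). SW was lower in 5 (2.02%, background 3.09%) and higher in 5 (2.02%, background 2.31%). YH25005 was lower in 15 (6.05%, background 3.72%) and higher in 8 (3.23%, background 3.1%). The effect of the 20 CPM rule on these shares was not tested.

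The sharpest differences were members with a level near 0 in 1 line. Of the 248, 18 had a mean below 1 CPM in at least 1 line, with A28 low in 4, R8Q10 in 5, SW in 3 and YH25005 in 8, and 2 of them low in 2 lines. In 7 members all 3 libraries of a line had 0 counts. For these a fold is a lower bound, taken on unscaled CPM against 3 counts over the 3 libraries of the line. Such genes passed the threshold of 20 CPM only through the other lines. Neither count was made for annotated genes, so no background stands beside them and they are not shown to be a trait of added genes.

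In A28 the members at 0 counts were newGene_17810 and newGene_1119. newGene_17810 had 19.9, 62.2 and 11.95 CPM in R8Q10, 268, 256 and 81.5 in SW and 181, 126 and 137 in YH25005. It was at least 1110-fold higher in R8Q10, 6815-fold in SW and 4947-fold in YH25005 than in A28. Without R8Q10 replicate 2, its highest R8Q10 library, the R8Q10 bound was 542-fold. newGene_1119 had 36.3, 30.8 and 42.9 CPM in R8Q10, 16.4, 8.78 and 5.57 in SW and 50.5, 36.8 and 57.4 in YH25005, and was at least 347-fold higher in SW, the lowest of these lines. Every library of the other lines thus had counts for each of these genes, at levels that varied between lines. newGene_15940 was close to the same pattern, with 5 counts in A28 in total, all in replicate 3. It had 62.7, 81.9 and 65.4 CPM in R8Q10, 64.4, 60.3 and 83.5 in SW and 82.4, 117 and 99.4 in YH25005, and R8Q10 exceeded A28 1427-fold (95% exact Poisson interval of the A28 counts 612 to 4395, counting error only).

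In R8Q10 newGene_14289 and newGene_4892 had 0 counts, and both had counts in every other library. newGene_14289 had 51.5, 73.9 and 85.4 CPM in A28, 68.1, 69.5 and 40.9 in SW and 48.9, 37.8 and 50.3 in YH25005. newGene_4892 had 45.9, 43.9 and 56.5 CPM in A28, 64.6, 50.5 and 48.4 in SW and 46.5, 42.9 and 42.8 in YH25005. Relative to R8Q10, YH25005 was at least 1605-fold higher for newGene_14289 and at least 1562-fold higher for newGene_4892, with bounds for A28 and SW between 1721 and 2425. After scaling, none of the contrasts among A28, SW and YH25005 passed for newGene_4892 (edgeR, lowest adjusted p 0.36) or for newGene_14289 (lowest 0.666). newGene_8170, picked after its values were seen, was also low in R8Q10, at 0.229, 0.103 and 0.764 CPM, and differed between the other lines, with 36.1, 13.9 and 16.5 in A28, 72.2, 37.7 and 65.4 in SW and 1.91, 3.65 and 1.32 in YH25005.

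The numbers in the IDs placed newGene_4892 among other added genes that were low in the same line. Of the 11 added genes numbered 4869 to 4892 and listed in all files, 10 had an R8Q10 mean below a 16th of the lowest other line, with between 0 and 3 counts over the 3 R8Q10 libraries. Over all 2093 added genes the share was 3.77% (79 genes). The exception was a member, newGene_4881, which stood at 36.8 ± 21.9 CPM (SD, n = 3) in R8Q10 while A28 was at 83.2 ± 71.5, SW at 58.5 ± 33.5 and YH25005 at 64.4 ± 10.3 CPM. This was the longest stretch of such genes with at most 1 exception inside. It was chosen after the values were seen, and the files do not say whether the numbers follow position in the genome.

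**Figure D3:**
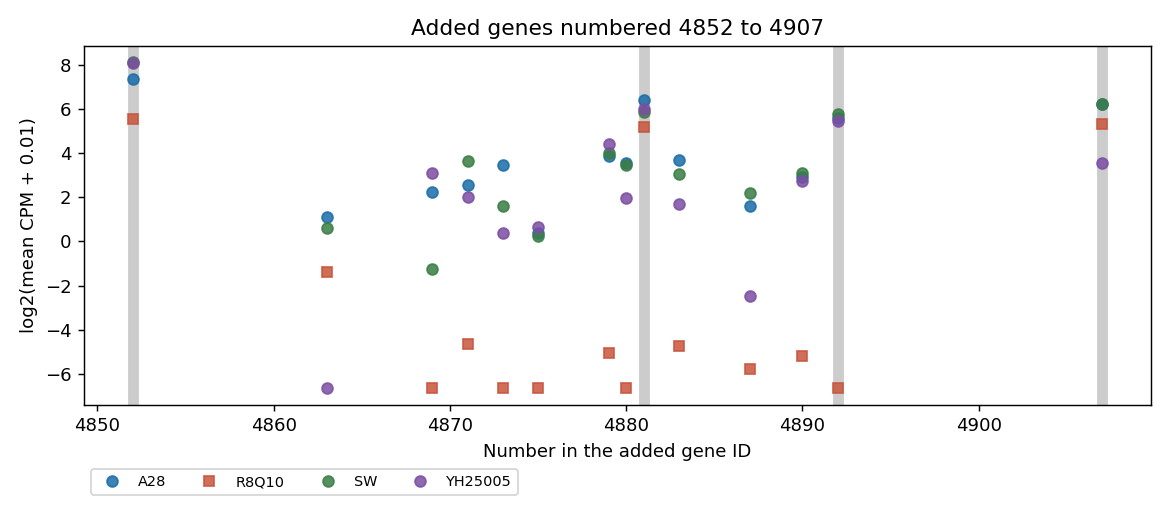
Mean level of each line as log2(mean CPM + 0.01) for the 14 added genes numbered 4850 to 4910 that are listed in all files, against the number in the ID, with grey bands at the 4 members. R8Q10 (squares) lies far below the other lines for 10 of the genes, newGene_4892 among them, and stays near the other lines for newGene_4881.

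In SW the members at 0 counts were newGene_17213 and newGene_7563. newGene_17213 had 115, 69.1 and 402 CPM in A28 and 92.1, 74.5 and 251 in R8Q10. In YH25005 it had 1.40, 95.1 and 89.6, so 1 YH25005 library lay far below the other two. SW was at least 6260-fold lower than A28 and at least 2137-fold lower than YH25005 (5915-fold and 2668-fold on TMM-scaled totals). Without A28 replicate 3, the highest A28 library, the first bound was 3190.4-fold. newGene_7563 was more even, with 39.3, 40.9 and 65.0 CPM in A28, 24.6, 28.1 and 26.3 in R8Q10 and 35.3, 27.9 and 45.2 in YH25005. SW was at least 884-fold lower than R8Q10, the lowest of these (833-fold on TMM-scaled totals).

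In YH25005 newGene_3828, described above, was at 0 counts and at least 1188-fold lower than in A28 (899-fold on TMM-scaled totals). Other members were near 0 there. newGene_18518 had 0.0303, 0.643 and 0.307 CPM in YH25005, against 309.6, 10.8 and 327 in A28, 108, 6.39 and 51.2 in R8Q10 and 572, 192 and 272 in SW. The lowest A28 and R8Q10 libraries, replicate 2 of each, were far below the other replicates but above all of YH25005. newGene_5755 had 9 counts in YH25005 in total, against 36.5, 37.9 and 40.5 CPM in A28, 38.5, 52.4 and 38.4 in R8Q10 and 10.2, 15.5 and 12.2 in SW. newGene_15921 had 10 counts in YH25005 and was low in A28 too, at 4.07, 7.76 and 2.08 CPM, against 47.5, 66.4 and 39.7 in R8Q10 and 51.3, 55.3 and 38.2 in SW. Its neighbour in number, newGene_15922, did not share this pattern: A28 was at 41.9 ± 18.9 CPM (SD, n = 3), R8Q10 at 14.1 ± 4.78, SW at 15.2 ± 7.39 and YH25005 at 9.07 ± 0.849 CPM. newGene_4415 was near 0 in R8Q10 and in YH25005, with 30 and 12 counts in total, against 24.7, 71.8 and 27.5 CPM in A28 and 64.3, 77.6 and 28.9 in SW.

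**Figure D4:**
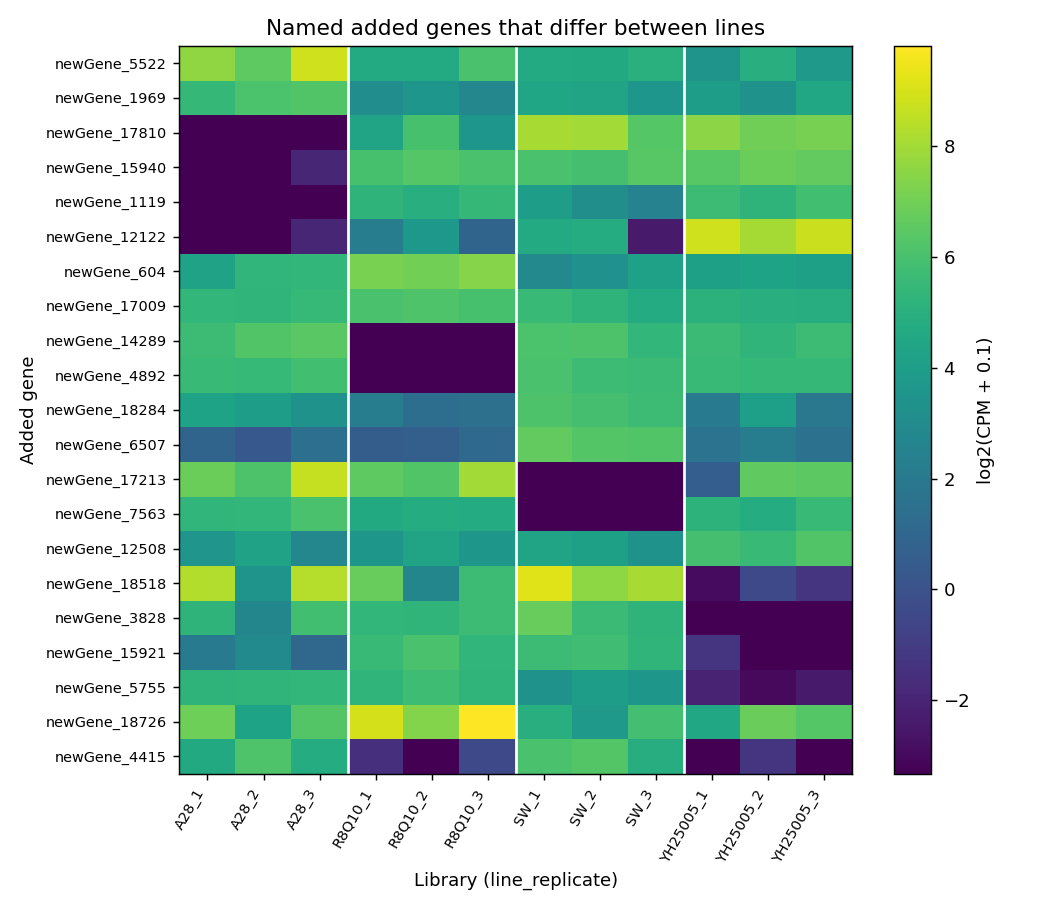
Level of the 21 members named for the largest differences between lines, as log2(CPM + 0.1), with a row per gene and a column per library. Dark blocks mark the members near 0 in a line, such as newGene_14289 and newGene_4892 in R8Q10 and newGene_17213 and newGene_7563 in SW. Where all 3 libraries of a block are at 0 counts the colour shows the added 0.1.

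Some members stood out by a high level in 1 line, in shares near the background given above. Of those named here and below, newGene_12122, newGene_12508, newGene_6507, newGene_18284 and newGene_1969 passed the 20 CPM mean only through that line. Their contrasts with that line are therefore a description, and the p-values lend no further support. newGene_12122 reached 458, 257 and 425 CPM in YH25005. It had 4.61, 12.7 and 1.80 in R8Q10, 26.0, 27.5 and 0.0903 in SW, and 5 counts in total in A28, all in replicate 3. SW minus YH25005 was -4.78 (SE 1.37, adjusted p = 0.0242) (edgeR). That call did not pass without SW replicate 1 or 2 or YH25005 replicate 1 or 3 (adjusted p 0.0547 to 0.0633), with log2 differences from -5.28 to -4.60. It passed at -4.15 without SW replicate 3 and at -5.46 with the replicate number as a block. The call against R8Q10 did not pass without R8Q10 replicate 1 (edgeR adjusted p = 0.0503, log2 difference -6.16 against -6.38 with all libraries), and it was -7.27 without R8Q10 replicate 2. newGene_12508 was less extreme and separated YH25005 cleanly, at 61.3, 45.2 and 75.2 CPM against at most 20.2 in the other 9 libraries. The log2 differences of A28, R8Q10 and SW from YH25005 were -2.75 (SE 0.41, adjusted p = 0.000665), -2.48 (SE 0.40, adjusted p = 0.00121) and -2.29 (SE 0.40, adjusted p = 0.00162) (edgeR).

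newGene_6507 was high in SW, at 98.9, 78.7 and 74.6 CPM. It was at most 2.71 CPM in A28 and R8Q10 and at 3.06, 4.58 and 2.92 CPM in YH25005. On the log2 scale SW exceeded YH25005 by 4.26 (SE 0.35, adjusted p = 7.69e-06) (edgeR). newGene_18284 was graded, with 70.1, 60.4 and 51.5 CPM in SW, 19.6, 16.3 and 10.5 in A28, 3.94, 16.6 and 3.75 in YH25005 and 4.52, 2.55 and 2.75 in R8Q10. SW lay above all other libraries. YH25005 replicate 2 was within the range of A28, and without it the log2 difference of SW from YH25005 was 3.56 in place of 2.64.

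newGene_604 was highest in R8Q10, at 143, 127 and 171 CPM, against 18.9, 39.2 and 41.3 in A28, 7.05, 9.92 and 17.8 in SW and 17.6, 19.1 and 17.5 in YH25005. R8Q10 exceeded A28, the nearest line, with a log2 difference for A28 minus R8Q10 of -2.15 (SE 0.38, adjusted p = 0.00185) (edgeR). newGene_17009 showed a small R8Q10 excess, at 64.5, 73.0 and 63.2 CPM against 27.2 to 45.0 in the other libraries. Its calls against A28 and YH25005 did not hold throughout: the first did not pass when any 1 of 6 libraries was left out, and so with the second (edgeR adjusted p up to 0.0671 and 0.109). The log2 differences in those fits were close to the full ones, from -0.75 to -0.66 against -0.70 for A28 minus R8Q10 and from 0.58 to 0.73 against 0.68 for R8Q10 minus YH25005. newGene_18726 was at 495, 164 and 889 CPM in R8Q10 and 31.1, 13.6 and 57.7 in SW, and its differences were called against SW and A28 but not against YH25005 (edgeR adjusted p = 0.0529). Without R8Q10 replicate 3 its log2 difference from SW was 3.17 in place of 3.87, and without SW replicate 3 it was 4.48. The call against A28 did not pass without A28 replicate 2 or 3 or R8Q10 replicate 1 or 3 (edgeR adjusted p up to 0.117).

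newGene_5522 and newGene_1969 were highest in A28. newGene_5522 had 197, 94.1 and 461 CPM in A28, 25.9, 26.0 and 65.6 in R8Q10, 25.5, 24.8 and 31.9 in SW and 10.8, 29.4 and 12.9 in YH25005. Its A28 libraries differed widely but lay above all others, and the log2 difference from R8Q10 was 2.69, or 1.83 without A28 replicate 3 and 3.29 without R8Q10 replicate 3. Without A28 replicate 3 the differences from SW and YH25005 were 2.26 and 2.65, against 3.14 and 3.49. newGene_1969 had 42.1, 67.3 and 74.8 CPM in A28, 8.497, 11.9 and 6.63 in R8Q10, 20.9, 20.1 and 11.9 in SW and 15.6, 10.7 and 22.4 in YH25005, with the smallest difference from YH25005, 1.48 (SE 0.37, adjusted p = 0.0123) (edgeR).

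Dividing a count by its FPKM gives an implied length, the one that would turn that count into that FPKM in that library. The counting program is not named, so this need not be a length that the authors' pipeline used. This implied length was computed from the library's listed total, set to a common scale through the median of annotated genes, and used where the count was at least 100, so its absolute size is approximate, and an error of scale in a library would move all of its genes alike. Members had a median implied length of 1482 bases (quartiles 974 and 2355), against 1676 (1033 and 2578) for annotated genes of at least 20 CPM. Members under 1000 bases numbered 66 (26.6%, against 23.7% of the annotated genes), and 41 were over 3000 bases (16.5% against 17.7%). The longest were newGene_13951, newGene_6714 and newGene_16297, at 11364.5, 7745 and 5630.0 bases. The shortest were newGene_3712 and newGene_6090, at 406 and 455 bases.

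For most members the implied length was the same in every line. Of 248 members, 20 (8.06%) differed by over 10% between the line with the lowest and the line with the highest median, against 14.0% of annotated genes of at least 20 CPM, and the median ratio was 1.00. The differences were not more frequent between lines of different gene lists than between lines that share a list. A28 and R8Q10, which share one list of genes, differed by over 10% in 15 of 237 members, and SW and YH25005, which share the other, in 9 of 236. Pairs from different lists did so in 6 to 10 of 233 to 240 members.

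In 11 of the 20 members at least 1 line was clear of all other libraries in implied length, and in the other 9 every line overlapped another. newGene_10926, for example, ran from 2892 to 4340.1 bases within R8Q10 and from 3016 to 4228 within YH25005. The same count was not made for annotated genes. A line with few usable libraries is also clear more easily. In newGene_2389, R8Q10 had 1 library with at least 100 counts, at 2563 bases against 2560 in YH25005 replicate 1. newGene_3414 had an implied length of 2969 bases in YH25005, with all 3 libraries between 2962 and 2976, and between 2076 and 2094 in the other 9. Its count was also apart there, at 93.7, 103 and 90.02 CPM in YH25005 against 42.5 to 61.9 in the other libraries, and SW minus YH25005 was -1.21 (SE 0.19, adjusted p = 0.000781) (edgeR). These counts are not corrected for length. In the deposited FPKM the lines were closer, with a mean of 29.4 in YH25005 against 25.6 to 27.8 in the other lines. FPKM is not TMM-scaled, and it understates YH25005, whose factors were the lowest (0.779, 0.914 and 0.766). The median count over FPKM of annotated genes was also highest there, at 1758 to 1881 bases against 1579 to 1662 in the other lines. A scaled difference per length was not tested. newGene_3002 was at 582 to 622 bases in A28 and at 1010.1 to 1192 in the other lines. newGene_19472 was at 1188 and 1109 bases in 2 A28 libraries, the third having under 100 counts, and at 1981 to 2208 in the other 9. newGene_17213, which had 0 counts in SW, was at 699 and 696 bases in YH25005 and at 1264 to 1777 in A28 and R8Q10. newGene_4925 separated the lines in pairs, at 1250.1 to 1454 bases in A28 and 1403 to 1477 in YH25005 against 2110 to 2395 in R8Q10 and 2173 to 2188 in SW.

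In newGene_5417 the implied length changed between replicates of a line. It was 1482 and 1464 bases in A28 replicates 2 and 3, 1472 in R8Q10 replicate 3, 1574 in SW replicate 2, and 1483 and 1486 in YH25005 replicates 1 and 3. In R8Q10 replicates 1 and 2, SW replicates 1 and 3 and YH25005 replicate 2 it was 2907 to 2917. The 4 libraries of highest level, A28 replicates 2 and 3 and YH25005 replicates 1 and 3, were all at the shorter value. A line's median for this gene depends on which replicates prevail.

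**Figure D5:**
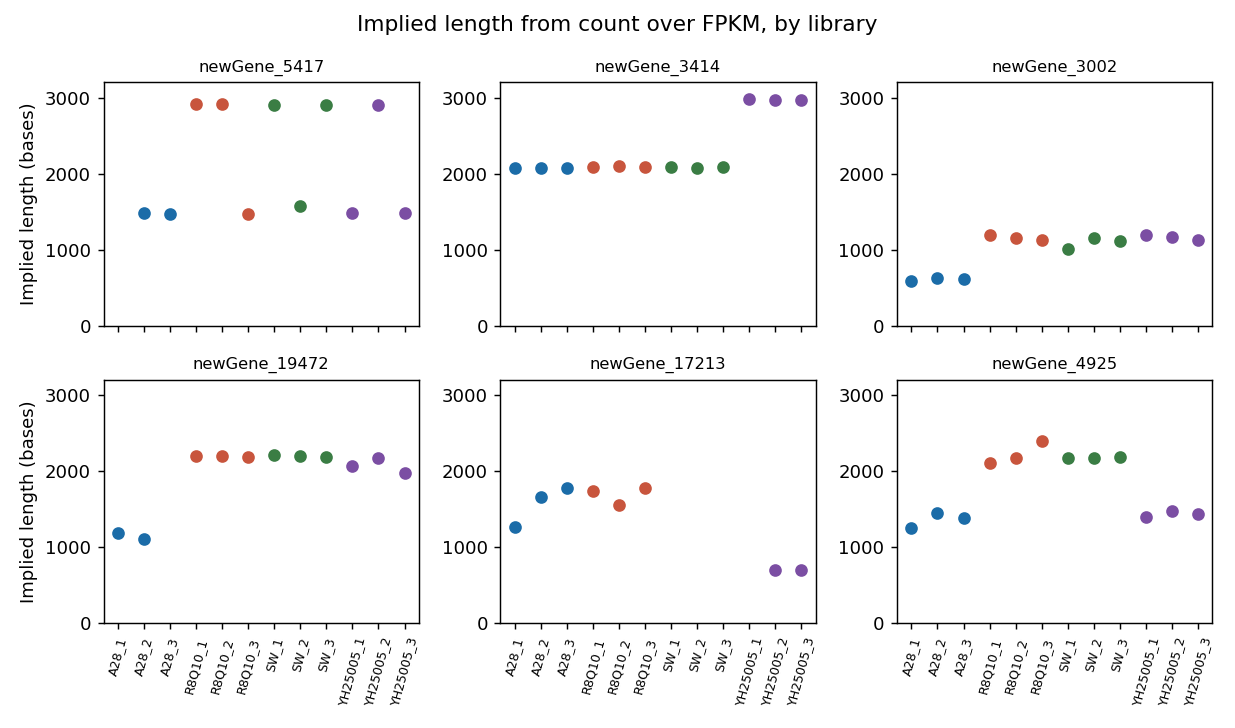
Implied length in bases, from count over FPKM, of 6 members in each library, coloured by line, with libraries under 100 counts left out. newGene_3414 is at 2962 to 2976 bases in YH25005 and newGene_3002 at 582 to 622 bases in A28, while newGene_5417 is at 1464 to 1574 or at 2907 to 2917 bases, and has both within R8Q10, SW and YH25005.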

How the data were processed

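RNA was sequenced from 12 libraries of 4 lines. Per the submitters' processing notes HISAT2, bcl2fastq and DESeq2 were used. The sources used here do not name the genome build, the annotation, the counting program or the method that found the added genes. Per the file headers, the authors deposited for each gene a count and an FPKM value. The files of A28 and R8Q10 list one set of genes and those of SW and YH25005 another, so the fit used the 43708 genes in all 12 files.

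Counts were tested as deposited by the quasi-likelihood F test of edgeR 4.0.16, run under R 4.3.3 (TMM scaling, 1 coefficient per line over all 12 libraries, Benjamini-Hochberg adjustment over all 43708 genes, threshold 0.05). The filter on low counts removed 0 genes. The fit was also run on counts simulated from its own gene means and spread, without scaling differences between lines. That run checks the code and lends no support to the calls. CPM is the count over the total of all listed counts. FPKM was used to describe level per length and for the implied length, which is count over FPKM and listed total, scaled by the median of annotated genes, taken where the count was at least 100 and summarised by the median of a line. Intervals and limits for low counts (95%, exact Poisson) cover counting error only.

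Genes named were the 10 of highest mean CPM, the 3 with the largest fold per pair and direction among called genes whose libraries do not overlap, 2 per line and direction among genes with a line apart, the 5 steadiest, the 10 with the largest length ratio, the 5 longest and shortest, and those beside the threshold. Of these some are given only in counts and ranges. Others are said to be picked after their values were seen, as are the pairs of constant ratio. The members, lists and tests were chosen with earlier results of these data known. Alternatives were DESeq2 1.42.0, other samples in the fit, other thresholds, leaving out each library, and the replicate number as a block. Replicate numbers are given in the labels. Deviations from the line means correlated between same-numbered libraries at 0.157, 0.65 and 0.493 for A28 and R8Q10, above 0.1 throughout, while the other pairs of lines ranged from -0.373 to 0.441 and did not all pass 0.1.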

Additional observations from a re-analysis of the deposited data

Results flagged for a closer look

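Added genes that only one of the gene lists holds were outside every comparison above, and some were well expressed. Of 564 added genes listed for A28 and R8Q10 only, 7 had a mean of at least 20 CPM over their 6 libraries. The highest, newGene_17243, had 64.4, 69.6 and 135 CPM in A28 and 27.7, 32.7 and 31.0 in R8Q10. Of 479 added genes listed for SW and YH25005 only, 7 had such a mean. The highest, newGene_1449, had 25.1, 27.5 and 2.77 CPM in SW and 129, 78.4 and 105 in YH25005. Their levels in the lines of the other list were not analysed here.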

How the results depend on the processing

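Counts of members called kept within 1.5 times of the values given under most alternatives. DESeq2 gave 65 for A28 and SW, with 34 higher and 31 lower in A28 against 20 and 23. When each fit held just the pair of lines compared, A28 and R8Q10 gave 33 and A28 and SW 23, and with all genes of their shared list A28 and R8Q10 gave 35. Leaving out 1 library each gave 37 to 75 for A28 and R8Q10, 26 to 70 for A28 and SW, 59 to 108 for A28 and YH25005, 41 to 76 for R8Q10 and SW, 32 to 82 for R8Q10 and YH25005, 46 to 83 for SW and YH25005, 102 to 157 for any difference and 42 to 74 for 1 line apart. A threshold of 10 CPM (495 members) gave, for the pairs in that order, 130, 89, 175, 128, 126 and 136, with 260 for any difference and 124 for 1 line apart. A threshold of 50 CPM (70 members) gave 17, 14, 28, 19, 16 and 21, with 40 and 16. These follow the number of members: the share with any difference was 52.5% and 57.1%. Lengths differed between lines in 44 members at a tolerance of 5% and in 13 at 20%. With the replicate number as a block, counts were 61, 47, 94, 61, 68 and 67, with 136 for any difference and 54 for 1 line apart. With only A28 and R8Q10 in the fit, the block gave 66 against 33 without it, an alternative chosen after seeing the data. For 107 called contrasts of 34 genes, 1819 values were computed under the alternatives, part of them added after seeing the data. Of these, 1710 kept direction and side of the threshold, 109 (from 29 contrasts) no longer passed and 0 reversed. The fits that held just the pair of lines compared were not among these values. For the other changes in counts the cause was not tested.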
